A study of Mus musculus with 6 samples.

Results

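The genes described are 32 genes of glycolysis and of the response to low oxygen, out of 38720 rows of a table of normalized counts. They were taken by symbol from a list whose rule uses no measured value, but the list was chosen with earlier results of these data known. They comprise 3 carriers of glucose and lactate, 8 genes of the hexose phosphate steps and 11 genes of the steps between triose phosphate and lactate. The others are 4 genes for the alpha subunits of hypoxia-inducible factor (HIF) and its prolyl hydroxylases, and 6 other genes known to respond to hypoxia. All 32 were found and all 32 passed the filter on low values. RNA was sequenced from 3 Cldn18 knockout libraries (genotype CLDN18-/-) and 3 wild-type libraries (CLDN18+/+). All were of mouse strain B6:129S5, untreated as far as the labels say, and the tissue was the stomach corpus at the level of the gland neck, cut from frozen unfixed sections by laser capture. The sample labels give an age of 7 weeks and the series text gives 7 days. Claudin-18 is a tight junction protein of stomach and lung epithelium, and the question is what its loss changes in the neck mucosa, where mucous neck cells and progenitors lie next to acid-secreting parietal cells and zymogen-secreting chief cells.

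Glycolysis splits glucose into pyruvate, and lactate dehydrogenase interconverts pyruvate and lactate. Several steps are shared by isozymes from separate genes, and oxidative tissues such as heart use a different lactate dehydrogenase subunit (Ldhb) from glycolytic or dividing cells (Ldha). When oxygen is low, the prolyl hydroxylases stop marking the HIF alpha subunits for destruction, and HIF binds the core of the hypoxia response element near many of these genes. The gastric gland holds parietal cells, which are packed with mitochondria and depend on oxidative metabolism to secrete acid.

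Recovered library totals were 37673283 to 52842813 reads, of which the single gene Gm26924 took 38.6% to 45.4%. Cldn18, the targeted gene, had 13035, 16798 and 15818 normalized counts in the knockout libraries, against 30498, 21210.1 and 23241 in the wild-type libraries (log2 difference -0.71 ± 0.20 SE, adjusted p = 0.0134), and without knockout library 1 its adjusted p was 0.0882. Reads of genes of the mitochondrial genome made up 1.25% to 1.56% of the knockout libraries and 3.28% to 4.28% of the wild-type libraries. Reads on processed pseudogenes made up 0.104% to 0.118% of the knockout libraries, against 0.144%, 1.07% and 0.530% in wild-type libraries 1, 2 and 3, so wild-type libraries 2 and 3 stood apart. The cell types of the gland differed as well. Of 5 mucous neck cell markers 3 were called higher and 1 lower (89215 to 185842 normalized counts in knockout libraries, against 76556 to 98976 in wild-type libraries), and of 6 surface pit cell markers 4 were called lower (351159.7 to 607693 normalized counts in knockout libraries, against 939428 to 1580073 in wild-type libraries). Of 12 parietal cell markers 11 were called lower, and their summed level was 38267 to 42797 normalized counts in knockout libraries, against 457472 to 610217 in wild-type libraries; that list includes Gif, which chief cells make in mice. Of 7 tested chief cell markers 6 were called lower (39015 to 72889 normalized counts in knockout libraries, against 1975361 to 3286298 in wild-type libraries). All 9 proliferation genes were called higher (38451 to 50011 normalized counts in knockout libraries, against 13246 to 15746 in wild-type libraries), 6 of 10 myeloid markers were called higher (5359 to 9947 normalized counts in knockout libraries, against 2703 to 3839 in wild-type libraries), and 11 of 12 tested endothelial markers were called lower (4461 to 6005 normalized counts in knockout libraries, against 10706 to 16948 in wild-type libraries). No marker of these lists that is in the table was at 0 in all 6 libraries. In tissue RNA, fewer cells of a type and less RNA per cell cannot be told apart, and the part of these cell types in the results below was not tested. The labels do not say whether the libraries of a group come from separate animals, so the p-values measure only the spread between these libraries.

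Of the 32 genes, 7 were called higher and 9 lower in the knockout libraries, and 16 were not called (limma on log2 of the normalized count plus 1, Benjamini-Hochberg adjusted p under 0.05 over 17432 genes). The share called higher was 21.9%, against 23.3% of all genes tested, and the share called lower was 28.1%, against 21.5% of all genes. In either direction 16 of 32 (50%) were called, against 44.7% of all genes. No overlap between the 3 knockout and the 3 wild-type values was seen for 17 of the 32 genes (53.1%), against 55.2% of all genes. The median log2 difference, knockout minus wild-type, was -0.07 over the 32 genes and -0.02 over all genes tested. The list as a whole thus stood close to the background, and the results lie in its single genes. By role, 2 of 3 carriers were higher, 3 of 8 genes of the hexose phosphate steps were higher and 3 lower, and 1 of 11 genes between triose phosphate and lactate was higher and 3 lower. None of the 4 HIF and hydroxylase genes was called by limma, and of the 6 other hypoxia response genes 1 was higher and 3 lower. Folds below are ratios of group means. Called genes changed by at least 2-fold on the log2 scale numbered 9, of which 6 were lower (Ldhb, Bnip3, Pfkfb3, Adm, P4ha2 and Pfkm) and 3 were higher (Hk2, Slc16a1 and Pfkp). That count at 2-fold was not made over all genes tested. The direction differed between isozymes of a single step in several families. Leaving out knockout library 3 or wild-type library 3 each left 4 genes called higher in place of 7, while the 9 lower calls held in each of the 19 alternatives.

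**Figure D1:**
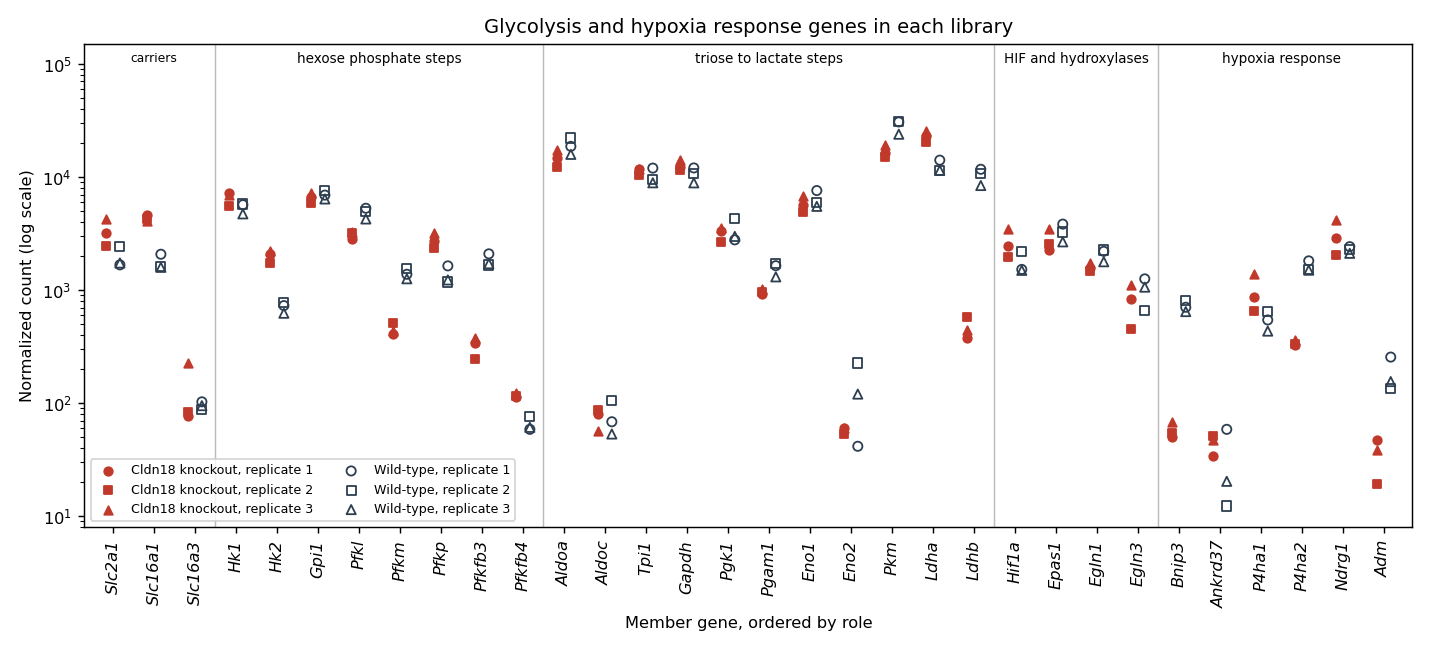
Normalized counts of the 32 genes on a log axis, with a point for each of the 3 Cldn18 knockout and 3 wild-type libraries. Ldhb lies between 379.7 and 574 in knockout libraries and between 8405 and 11705 in wild-type libraries, the widest gap on the plot.

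Among the 32 genes, the widest opposite movement within an isozyme family was between the genes of the lactate dehydrogenase subunits. Ldhb (chr6:142490249-142507957, minus strand, mm10) encodes the H subunit, which is typical of tissues that oxidize lactate. It had 379.7, 574 and 444 normalized counts in the knockout libraries, against 11705, 10757 and 8405 in the wild-type libraries. All 3 knockout values were far below every wild-type value, with means of 466 ± 99.0 in knockout and 10289 ± 1699 in wild-type libraries (SD, n = 3 each), and Ldhb fell 22.1-fold (log2 difference -4.47 ± 0.18 SE, adjusted p = 9.4e-08). Ldha (chr7:46841475-46855627, plus strand) encodes the M subunit, typical of glycolytic muscle and dividing cells. It had 22879.8, 20371 and 25292 normalized counts in the knockout libraries, against 14094, 11484 and 11454 in the wild-type libraries, with no overlap, and rose 1.85-fold (log2 difference 0.89 ± 0.17 SE, adjusted p = 0.00185). Per kilobase of annotated exon, which allows levels to be compared between genes, Ldhb supplied 4.19% ± 1.24 in knockout libraries and 63.6% ± 2.82 in wild-type libraries (SD, n = 3 each) of the summed Ldha and Ldhb level. By library the Ldhb share was 3.38, 5.61 and 3.57% in the knockouts, against 63.6, 66.4 and 60.7% in the wild types (exact permutation test, two-sided, p = 0.1 and 0.18 adjusted over the 9 isozyme shares tested; a design of 3 against 3 cannot go below 0.1). Of the 32 genes by level per kilobase, Ldhb ranked 20 in knockout libraries and 1 in wild-type libraries, with a wild-type margin over Aldoa that did not hold in wild-type libraries 2 and 3. Per kilobase of the principal transcript the Ldhb ranks were 20 in knockout and 3 in wild-type libraries. Per kilobase of annotated exon Ldha ranked 1 in knockout libraries and 4 in wild-type libraries. The Ldhb share also depends on the length used. Per kilobase of the principal transcript it was 2.73% in knockout and 52.9% in wild-type libraries. With no division by length it was 2.03% in knockout and 45.4% in wild-type libraries. Whether Ldhb was the larger part of the pair in wild-type libraries is thus not settled.

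The promoters of this pair, of the collagen prolyl hydroxylase pair P4ha1 and P4ha2, and of Hk2 and Bnip3 are shown because these genes are known for their hypoxia response or moved in opposite directions within a pair. Each window runs from 250 bases before to 50 bases after the start in RefSeq (GRCm38.p6), 5′ to 3′ on the gene's strand. Capitals mark the HIF-binding core, searched as ACGTG or GCGTG on both strands, so that a match on the other strand reads CACGT or CACGC and the palindrome CACGTG counts on each strand.
Ldha, chr7:46845554-46845853, plus strand: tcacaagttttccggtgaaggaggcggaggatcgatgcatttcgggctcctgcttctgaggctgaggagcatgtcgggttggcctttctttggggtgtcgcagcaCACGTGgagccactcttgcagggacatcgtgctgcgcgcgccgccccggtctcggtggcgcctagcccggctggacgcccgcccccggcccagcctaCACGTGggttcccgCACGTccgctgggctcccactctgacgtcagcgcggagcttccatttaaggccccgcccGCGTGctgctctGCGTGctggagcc
Ldhb, chr6:142507908-142508207, minus strand: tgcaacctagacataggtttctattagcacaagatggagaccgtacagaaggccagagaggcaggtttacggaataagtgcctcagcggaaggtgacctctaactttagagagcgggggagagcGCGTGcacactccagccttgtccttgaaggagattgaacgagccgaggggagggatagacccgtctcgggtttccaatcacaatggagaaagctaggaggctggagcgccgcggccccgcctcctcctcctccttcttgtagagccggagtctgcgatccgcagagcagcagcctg
P4ha1, chr10:59323046-59323345, plus strand: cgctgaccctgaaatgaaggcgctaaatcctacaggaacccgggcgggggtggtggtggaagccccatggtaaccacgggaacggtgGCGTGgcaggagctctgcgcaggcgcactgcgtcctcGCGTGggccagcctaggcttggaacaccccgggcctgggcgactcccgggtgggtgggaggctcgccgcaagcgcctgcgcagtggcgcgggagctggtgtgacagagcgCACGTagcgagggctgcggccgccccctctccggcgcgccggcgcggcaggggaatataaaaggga
P4ha2, chr11:54100674-54100973, plus strand: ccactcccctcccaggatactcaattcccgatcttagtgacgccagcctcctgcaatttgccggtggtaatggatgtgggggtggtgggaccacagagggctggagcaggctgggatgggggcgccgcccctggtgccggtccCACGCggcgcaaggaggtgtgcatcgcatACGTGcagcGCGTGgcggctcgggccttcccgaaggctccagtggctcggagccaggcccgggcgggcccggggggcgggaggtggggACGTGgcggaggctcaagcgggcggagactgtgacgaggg
Hk2, chr6:82774405-82774704, minus strand: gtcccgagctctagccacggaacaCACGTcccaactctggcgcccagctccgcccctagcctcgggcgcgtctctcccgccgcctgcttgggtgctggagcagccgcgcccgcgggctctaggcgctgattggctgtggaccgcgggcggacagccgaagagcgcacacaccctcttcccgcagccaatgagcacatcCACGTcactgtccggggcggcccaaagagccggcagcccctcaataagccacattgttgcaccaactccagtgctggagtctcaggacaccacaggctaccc
Bnip3, chr7:138909457-138909756, minus strand: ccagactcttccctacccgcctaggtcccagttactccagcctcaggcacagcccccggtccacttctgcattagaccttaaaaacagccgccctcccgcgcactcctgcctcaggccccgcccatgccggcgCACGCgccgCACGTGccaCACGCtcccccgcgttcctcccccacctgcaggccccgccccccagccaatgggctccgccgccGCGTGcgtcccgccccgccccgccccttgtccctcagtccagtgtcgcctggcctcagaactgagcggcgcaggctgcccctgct

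The Ldha window shown has 7 core matches and the Ldhb window 1, while P4ha1 has 3, P4ha2 has 4, Hk2 has 2 and Bnip3 has 5. Ldha has another annotated start, whose window has 2 matches. A window was found for 30 of the 32 genes, all but Epas1 and Ndrg1. At least 1 core stood in a window of 27 of these 30 genes (90%), against 46.7% of the 27025 genes with a window; by window the shares were 35 of 42 (83.3%) and 43.8% of 32851. The core stood in the windows of 7 of 7 genes called higher, 9 of 9 called lower and 11 of 14 not called. The list includes genes chosen for a known response to hypoxia, so it was not drawn independently of this core. The promoters of all genes were not matched to these for base composition. A match is a string of letters, not a measured binding site.

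Among the carriers, Slc16a1 (MCT1, a lactate and pyruvate carrier of the plasma membrane) was higher. It had 4651, 4284 and 4111 normalized counts in the knockout libraries, against 2076, 1628 and 1589.5 in the wild-type libraries, without overlap, and rose 2.46-fold (log2 difference 1.31 ± 0.15 SE, adjusted p = 5.83e-05). Slc2a1 (GLUT1, the glucose carrier of most growing cells) had 3182, 2447 and 4242 normalized counts in the knockout libraries, against 1672, 2418 and 1736 in the wild-type libraries. Knockout library 2 lay just above the highest wild-type library, and knockout library 3 was the highest of all. Slc2a1 rose (log2 difference 0.74 ± 0.21 SE, adjusted p = 0.0156), but the call was lost without knockout library 3 (adjusted p = 0.0709), without wild-type library 3 (0.0676) and in the authors' deposited table (0.108), within a range of 0.00308 to 0.108 over 19 alternatives. Slc16a3 (MCT4, a lactate exporter of glycolytic cells) had 77.4, 83.5 and 226 normalized counts in the knockout libraries, against 103, 87.7 and 95.2 in the wild-type libraries, and it was not called (log2 difference 0.25, 95% interval -0.63 to 1.14, adjusted p = 0.636). Its knockout library 3 stood above every other library, and without it the log2 difference was -0.24.

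At the entry of glucose into the hexose phosphate pool, Hk2 (chr6:82725025-82774454, minus strand), the inducible hexokinase bound to mitochondria, was higher. It had 2073, 1752 and 2200.1 normalized counts in the knockout libraries, against 729.5, 780.4 and 624 in the wild-type libraries, and rose 2.82-fold (log2 difference 1.5 ± 0.15 SE, adjusted p = 3.28e-05). Hk1, the hexokinase of most tissues, had 7185, 5551 and 6983 normalized counts in the knockout libraries, against 5691, 5778 and 4720.1 in the wild-type libraries, with overlap, and was not called (log2 difference 0.28, 95% interval -0.06 to 0.63, adjusted p = 0.17). The Hk2 share of the summed level per kilobase was 30.4% ± 1.08 in knockout libraries and 15.9% ± 0.350 in wild-type libraries (SD, n = 3 each), with an exact permutation p of 0.1. Per kilobase of the principal transcript the Hk2 share was 17.6% in knockout and 8.43% in wild-type libraries, so Hk1 was the larger part of the pair in both genotypes at either length. Gpi1, which turns glucose 6-phosphate into fructose 6-phosphate, had 6688, 5884 and 7186 normalized counts in the knockout libraries, against 6918, 7597 and 6394 in the wild-type libraries and was not called (log2 difference -0.08, 95% interval -0.40 to 0.24, adjusted p = 0.671).

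Phosphofructokinase, which commits sugar to glycolysis, changed in its isozymes in both directions. The muscle-type gene Pfkm had 407, 512 and 437 normalized counts in the knockout libraries, against 1381, 1542 and 1259 in the wild-type libraries, and fell 3.08-fold (log2 difference -1.62 ± 0.16 SE, adjusted p = 2.35e-05). The liver-type gene Pfkl had 2854, 3223 and 3236 normalized counts in the knockout libraries, against 5293, 4954 and 4255 in the wild-type libraries, and fell (log2 difference -0.64 ± 0.14 SE, adjusted p = 0.0038). The platelet-type gene Pfkp had 2725, 2354 and 3172 normalized counts in the knockout libraries, against 1638, 1181 and 1230.3 in the wild-type libraries, and rose 2.04-fold (log2 difference 1.03 ± 0.17 SE, adjusted p = 0.000741). None of these 3 genes overlapped between genotypes. By level per kilobase Pfkm supplied 16.8% ± 1.84 in knockout libraries and 33.6% ± 2.34 in wild-type libraries (SD, n = 3 each), and Pfkp supplied 25.5% ± 3.34 in knockout libraries and 8.11% ± 1.20 in wild-type libraries (SD, n = 3 each), with an exact permutation p of 0.1 each. Pfkl supplied 57.7% ± 1.53 in knockout libraries and 58.2% ± 1.25 in wild-type libraries (SD, n = 3 each), with an exact permutation p of 0.5. The shares depend on the length used. Per kilobase of the principal transcript, Pfkl was at 50.4% in knockout and 61.5% in wild-type libraries. By library it was at 48.9, 53.7 and 48.6% in the knockouts, against 61.9, 61.8 and 60.8% in the wild types, without overlap. At that length Pfkm was at 9.53% in knockout and 23.1% in wild-type libraries and Pfkp at 40.1% in knockout and 15.4% in wild-type libraries. Exons of Pfkp share 748 bases with Pitrm1 on the opposite strand, and as no source used here gives the strand setting of the counting, their reads cannot be told apart there.

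The bifunctional enzymes that set the level of fructose 2,6-bisphosphate, the activator of phosphofructokinase, also parted. Pfkfb3, whose kinase activity far exceeds its phosphatase activity (chr2:11471433-11554077, minus strand), had 341, 244 and 378 normalized counts in the knockout libraries, against 2092, 1667 and 1712 in the wild-type libraries. Every knockout library was far below every wild-type library, and Pfkfb3 fell 5.68-fold (log2 difference -2.52 ± 0.19 SE, adjusted p = 4.85e-06). Pfkfb4, another member of that family, had 112, 116 and 122 normalized counts in the knockout libraries, against 58.8, 76.6 and 61.2 in the wild-type libraries, without overlap, and rose (log2 difference 0.83 ± 0.28 SE, adjusted p = 0.0331). The Pfkfb4 call was lost in 11 of 19 alternatives, with adjusted p-values of 0.00526 to 0.159 over all 19. Among the 11 were the fits without any single knockout library and without wild-type library 1 or 3 (0.0570 to 0.10). The replicate block (0.0723) and the authors' deposited table (0.159) were others. Pfkfb4 supplied 36.6% ± 5.11 in knockout libraries and 5.36% ± 1.24 in wild-type libraries (SD, n = 3 each) of the summed level per kilobase of the pair (exact permutation p = 0.1).

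**Figure D2:**
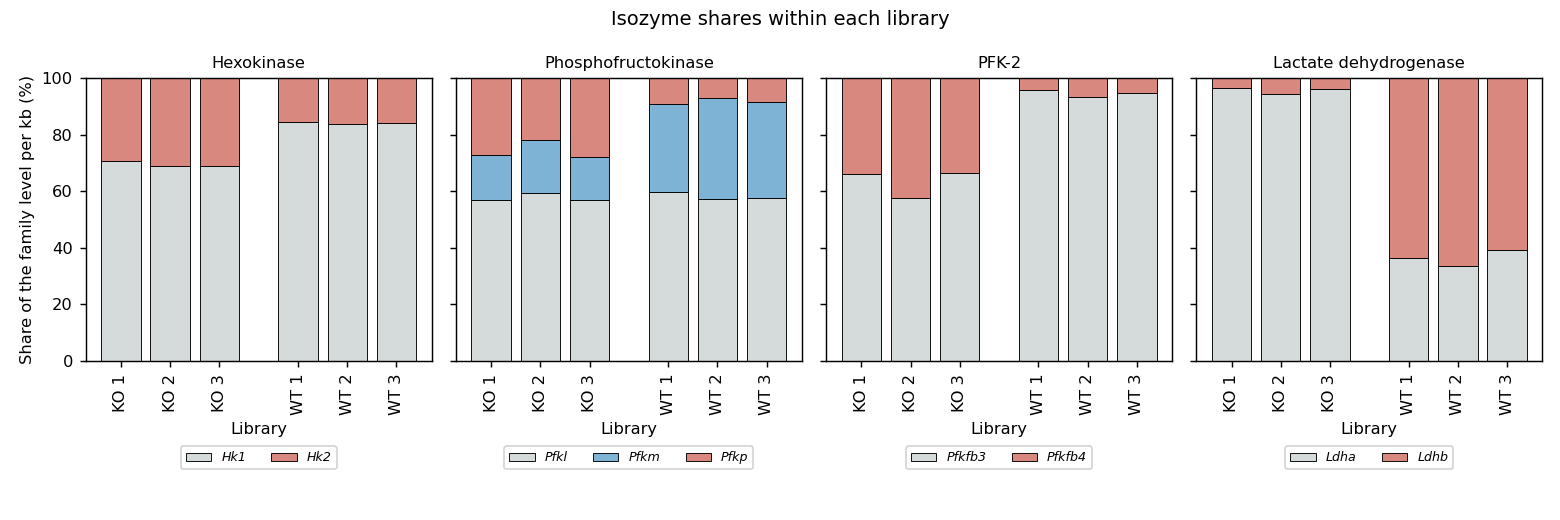
Stacked bars, 1 for each Cldn18 knockout (KO) and wild-type (WT) library, of the share in percent that each isozyme takes of the summed level of its family per kilobase of exon, for hexokinase, phosphofructokinase, the Pfkfb pair (PFK-2) and lactate dehydrogenase. The Ldhb, Pfkm, Pfkp, Hk2 and Pfkfb4 shares do not overlap between genotypes, whereas the Pfkl share does. Per kilobase of the principal transcript, not drawn here, the Pfkl share does not overlap either.

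In the steps between triose phosphate and pyruvate, most genes of the trunk were not called. Aldoa, the main aldolase of muscle and many other cells, had 14633, 12235 and 17368 normalized counts in the knockout libraries, against 18661, 22142 and 15854 in the wild-type libraries (log2 difference -0.36, 95% interval -0.79 to 0.07, adjusted p = 0.162). Tpi1, triose phosphate isomerase, had 11776, 10444 and 11684 normalized counts in the knockout libraries, against 11987, 9436 and 8889 in the wild-type libraries (log2 difference 0.17, 95% interval -0.19 to 0.53, adjusted p = 0.423). Gapdh, which oxidizes glyceraldehyde 3-phosphate, had 12269, 11473 and 14036 normalized counts in the knockout libraries, against 12028, 10696 and 8875 in the wild-type libraries (log2 difference 0.26, 95% interval -0.11 to 0.64, adjusted p = 0.229). These 3 genes overlapped between genotypes. Pgk1, which makes the first ATP of the pathway, had 3343, 2637 and 3542 normalized counts in the knockout libraries, against 2782, 4291 and 2983 in the wild-type libraries (log2 difference -0.06, 95% interval -0.48 to 0.35, adjusted p = 0.81). Eno1, the main enolase, had 5704, 4901 and 6773 normalized counts in the knockout libraries, against 7590.5, 5914 and 5503 in the wild-type libraries (log2 difference -0.13, 95% interval -0.51 to 0.26, adjusted p = 0.583). The 95% intervals leave room for changes of moderate size in each of these genes, and the signs of Tpi1, Gapdh, Pgk1 and Eno1 turned in at least 1 alternative. Aldoa was called lower with quantile normalization (adjusted p = 0.00536) and upper quartile scaling (0.0177), over a range of 0.00536 to 0.443.

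A pair of trunk enzymes did fall. Pkm, pyruvate kinase, which makes pyruvate and ATP, had 16232, 15018 and 19017 normalized counts in the knockout libraries, against 30686, 31022 and 23896 in the wild-type libraries, and was lower without overlap (log2 difference -0.76 ± 0.19 SE, adjusted p = 0.00716). Pgam1, phosphoglycerate mutase, had 932, 962 and 1017 normalized counts in the knockout libraries, against 1644, 1705 and 1309 in the wild-type libraries, and was also lower without overlap (log2 difference -0.67 ± 0.15 SE, adjusted p = 0.00399). The minor isozymes were not called. Aldoc, an aldolase best known from brain, had 80.3, 87.9 and 56.7 normalized counts in the knockout libraries, against 68.5, 106 and 53.4 in the wild-type libraries (log2 difference 0.01, 95% interval -0.78 to 0.81, adjusted p = 0.98). Eno2, the neuronal enolase, had 60.4, 53.2 and 60.6 normalized counts in the knockout libraries, against 41.6, 227 and 120.4 in the wild-type libraries (log2 difference -0.84, 95% interval -2.0 to 0.31, adjusted p = 0.218), so the wild-type libraries alone spanned the whole range. The summed level of the enteric neuron and glia markers, of which 5 of 9 tested were called lower, was 213, 321 and 302 in knockout libraries 1, 2 and 3, against 599.8, 3895 and 1613 in wild-type libraries 1, 2 and 3; its order in the wild types is that of Eno2. The summed level of the squamous forestomach markers, of which 4 of 8 tested were called lower and 1 higher, had the same wild-type order, with 717, 572 and 726 in knockout libraries 1, 2 and 3, against 655, 8334 and 2978 in wild-type libraries 1, 2 and 3. The share of reads on processed pseudogenes had that order too, at 0.144%, 1.07% and 0.530% in wild-type libraries 1, 2 and 3. The part of these cells, or of whatever set wild-type libraries 2 and 3 apart in such reads, in Eno2 was not tested. Without wild-type library 1 Eno2 was called lower (log2 difference -1.5, adjusted p = 0.00541, over a range of 0.00541 to 0.647).

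Processed pseudogenes, which are intronless copies of transcripts, matter for this group. Gapdh had 157 such copies in the table, and their summed reads came to 6.0%, 5.98% and 4.81% of the Gapdh value in knockout libraries, against 10.8%, 104% and 47.1% in wild-type libraries 1, 2 and 3. With those reads added, the log2 difference of Gapdh was -0.24 (adjusted p = 0.403) in place of 0.26. No source used here says how the authors' counting split reads between Gapdh and its copies, so the Gapdh value is uncertain.

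**Figure D3:**
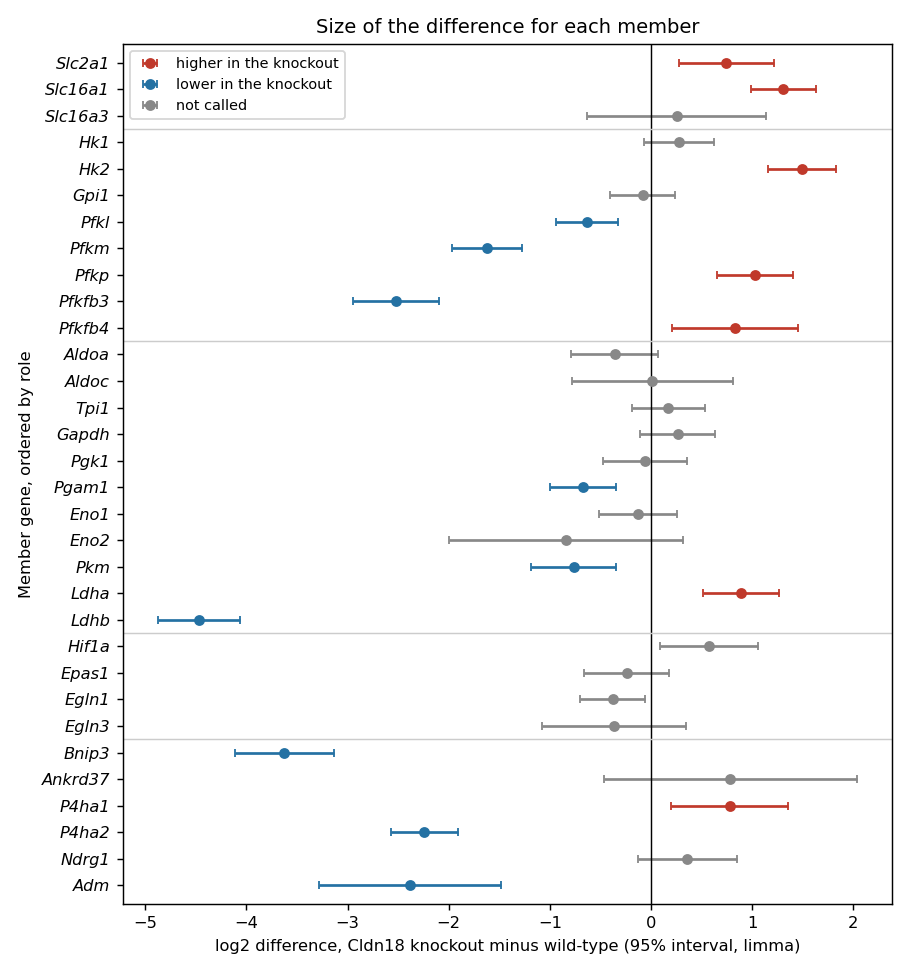
Log2 difference, Cldn18 knockout minus wild-type, of the 32 genes with its 95% interval from limma, coloured by call. Ldhb (-4.47) and Bnip3 (-3.62) lie farthest to the left and Hk2 (1.5) and Slc16a1 (1.31) farthest to the right, while most intervals of the trunk enzymes cross 0.

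None of the 4 genes of HIF and its hydroxylases was called by limma; at an unadjusted p under 0.05 limma gave 1 higher (Hif1a) and 1 lower (Egln1), edgeR called 1 higher and 1 lower, and DESeq2 called 1 higher. Hif1a, the alpha subunit present in most cells, had 2440.4, 1964 and 3439 normalized counts in the knockout libraries, against 1524, 2184 and 1495 in the wild-type libraries (log2 difference 0.58, 95% interval 0.09 to 1.06, adjusted p = 0.0533). It overlapped between genotypes through knockout library 2 and wild-type library 2. Hif1a was called higher in 6 of 19 alternatives, with adjusted p-values of 0.0419 by edgeR, 0.0346 by DESeq2 and 0.0105 without wild-type library 2. Over all 19 its adjusted p ranged from 0.0105 to 0.298. Epas1, which encodes the HIF2alpha subunit and is abundant in endothelium, had 2264, 2579.8 and 3483 normalized counts in the knockout libraries, against 3833, 3259 and 2670.3 in the wild-type libraries (log2 difference -0.24, 95% interval -0.66 to 0.18, adjusted p = 0.338). Egln1 (PHD2), the main oxygen-sensing hydroxylase, had 1574, 1479 and 1739.7 normalized counts in the knockout libraries, against 2203, 2261 and 1781 in the wild-type libraries (log2 difference -0.38, 95% interval -0.70 to -0.06, adjusted p = 0.0559). All 3 knockout values of Egln1 lay below the wild-type values. It was called lower in 5 of 19 alternatives, with adjusted p-values of 0.00392 to 0.33 over all 19. Egln3 (PHD3), itself a known HIF target, had 839, 449 and 1099 normalized counts in the knockout libraries, against 1257, 658 and 1062 in the wild-type libraries (log2 difference -0.36, 95% interval -1.07 to 0.35, adjusted p = 0.391), and its groups overlapped widely.

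The other hypoxia response genes moved apart, 1 called higher and 3 called lower of 6. Bnip3, a mitochondrial protein that marks mitochondria for removal by autophagy (chr7:138890836-138909519, minus strand), had 50.1, 54.7 and 68.2 normalized counts in the knockout libraries, against 705, 806 and 646 in the wild-type libraries. The groups were far apart, and Bnip3 fell 12.5-fold (log2 difference -3.62 ± 0.22 SE, adjusted p = 1.24e-06). Adm, which encodes the vasodilating peptide adrenomedullin, had 47.2, 19.2 and 38.4 normalized counts in the knockout libraries, against 256, 135 and 155 in the wild-type libraries, and fell 5.2-fold (log2 difference -2.38 ± 0.41 SE, adjusted p = 0.000929). The alpha subunits of collagen prolyl 4-hydroxylase, which stabilize the collagen helix, moved in opposite directions. P4ha2 (chr11:54100095-54131665, plus strand) had 325, 335 and 359 normalized counts in the knockout libraries, against 1814, 1528 and 1500.2 in the wild-type libraries, and fell 4.75-fold (log2 difference -2.24 ± 0.15 SE, adjusted p = 2.05e-06). P4ha1 (chr10:59323296-59373304, plus strand) had 865, 647 and 1380.2 normalized counts in the knockout libraries, against 545, 645 and 434 in the wild-type libraries, and rose (log2 difference 0.78 ± 0.26 SE, adjusted p = 0.032). Knockout library 2 lay only just above the highest wild-type value of P4ha1. The P4ha1 call was lost in 5 of 19 alternatives, with adjusted p-values of 0.00833 to 0.257 over all 19. Among the 5 were the fits without knockout library 1 (0.0698), without knockout library 3 (0.131) and without wild-type library 3 (0.131). The fit without wild-type libraries 2 and 3 (log2 difference 0.75) was another.

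Ndrg1, a stress response gene that is a common hypoxia marker, had 2877, 2063 and 4191 normalized counts in the knockout libraries, against 2421, 2292 and 2115 in the wild-type libraries, and was not called (log2 difference 0.36, 95% interval -0.13 to 0.85, adjusted p = 0.213). Ankrd37, a small ankyrin repeat protein known as a HIF target, had 34.0, 51.0 and 47.1 normalized counts in the knockout libraries, against 58.8, 12.3 and 20.4 in the wild-type libraries, and was not called (log2 difference 0.79, 95% interval -0.47 to 2.04, adjusted p = 0.288). Its exons share 349 bases with Lrp2bp and 57 bases with Ufsp2 on the opposite strand. Knockout library 3 held the highest value of all 6 libraries for 10 genes: Slc2a1, Slc16a3, Hk2, Pfkp, Pfkfb4, Gapdh, Ldha, Hif1a, P4ha1 and Ndrg1. It was the highest of the 3 knockout libraries for 24 of the 32, and neither count was made over all genes tested. The same library was also the highest in the summed level of fibroblast markers, which was 28677, 31825 and 50595 in knockout libraries 1, 2 and 3, against 40457, 36865 and 26742 in wild-type libraries 1, 2 and 3, and of myeloid markers, which was 6411, 5359 and 9947 in knockout libraries 1, 2 and 3, against 3839, 3579 and 2703 in wild-type libraries 1, 2 and 3. Of the 8 fibroblast markers 3 were called higher and 1 lower. Among the knockout libraries, library 3 was also the highest for endothelial markers (6005) and for smooth muscle and pericyte markers (14263). It was the lowest knockout library for mucous neck markers, at 89215 against 185842 and 142142 in libraries 1 and 2. It was also the lowest knockout library for proliferation genes, at 38451 against 43735 and 50011 in libraries 1 and 2. The part of these cells in the 10 genes was not tested. Wild-type library 3 was the highest of the wild-type libraries for 0 of the 32 genes and the lowest of all 6 libraries for 9. These counts were not made over all genes tested either.

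By level per kilobase, the order of the 32 genes shifted with genotype. In knockout libraries Ldha led with 6903 normalized counts per kb, followed by Aldoa with 5065, Tpi1 with 4105 and Pkm with 3350.5. In wild-type libraries Ldhb averaged 6553 and Aldoa 6488, which did not differ beyond their spread, since Ldhb was above Aldoa in wild-type library 1 and below it in libraries 2 and 3. They were followed by Pkm with 5706 and Ldha with 3729. Per kilobase of the principal transcript, Ldha still ranked 1 in knockout libraries, while in wild-type libraries Aldoa ranked 1, Pkm 2, Ldhb 3 and Ldha 5. By the union of exons Slc16a1 averaged 983 normalized counts per kb in knockout libraries and 399 in wild-type libraries, and ranked 9 in knockout and 17 in wild-type libraries. Hk2 averaged 336 normalized counts per kb in knockout libraries and 119 in wild-type libraries. Eno2, Adm, Aldoc, Pfkfb4 and Slc16a3 were the 5 lowest in knockout libraries.

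Other genes of the same pathways were taken from 8 lists. Of their 132 tested genes 25 were called higher (18.9%, against 23.3% of all genes tested) and 48 lower (36.4%, against 21.5% of all genes), with a median log2 difference of -0.16 against -0.02 over all genes. The counts of the single lists, all small, are to be read against those same background shares. Among 29 tested isozymes and carriers of glycolysis outside the 32 genes, 3 (10.3%) were higher and 10 (34.5%) lower. Slc16a7 (MCT2, a lactate carrier with high affinity) had 151, 229.8 and 129 normalized counts in the knockout libraries, against 6206, 5109.9 and 5342 in the wild-type libraries, and fell 32.7-fold (log2 difference -5.06 ± 0.21 SE, adjusted p = 9.4e-08), against the rise of its relative Slc16a1. Slc2a4 (GLUT4, the insulin-responsive glucose carrier of muscle and fat) had 50.1, 45.8 and 96.1 normalized counts in the knockout libraries, against 2141, 1934 and 1740.0 in the wild-type libraries, and fell 30.3-fold (log2 difference -4.97 ± 0.27 SE, adjusted p = 5.93e-07). Slc2a12, a relative of Slc2a4, fell 22-fold (log2 difference -4.36 ± 0.32 SE, adjusted p = 4.02e-06). Slc2a6, a carrier known from macrophages, had 289, 216 and 279 normalized counts in the knockout libraries, against 45.3, 46.9 and 52.4 in the wild-type libraries. It rose 5.42-fold (log2 difference 2.40 ± 0.26 SE, adjusted p = 5.24e-05), beside the higher myeloid sum given above. The part of myeloid cells in that rise was not tested.

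All 8 genes of the pentose phosphate pathway, which makes NADPH and ribose, were tested; 6 (75%) were called higher by limma and 6 by edgeR, 5 by DESeq2, and the list median was 0.84. No gene of that list was lower by any of these tools, nor by limma at an unadjusted p under 0.05. G6pdx, the entry enzyme, had 5427, 4991 and 5959 normalized counts in the knockout libraries, against 2635, 1894 and 1943 in the wild-type libraries (log2 difference 1.35 ± 0.16 SE, adjusted p = 8.63e-05). Pgd (1.32), Rpia (1.36) and Tkt (0.97) also rose on the log2 scale, as did Pgls and Rpe, whereas H6pd and Taldo1 were not called. These genes moved in libraries where the 9 proliferation genes were higher too, and a link to proliferation was not tested. Of 13 genes that bring pyruvate into the mitochondrion or control its oxidation, 8 (61.5%) were lower and 1 (7.69%) was higher, with a median of -0.64. Of the 4 pyruvate dehydrogenase kinases, which switch pyruvate oxidation off, Pdk2 and Pdk4 were lower, and Pdk1 (log2 difference -0.33, adjusted p = 0.0852) and Pdk3 (-0.21, adjusted p = 0.372) were not called. Pdk4 had 75.6, 161 and 107 normalized counts in the knockout libraries, against 808, 738 and 642 in the wild-type libraries (log2 difference -2.72 ± 0.27 SE, adjusted p = 2.75e-05), and Pdk2 fell 5.6-fold (log2 difference -2.48 ± 0.17 SE, adjusted p = 2.07e-06). The subunits of the mitochondrial pyruvate carrier, Mpc1 (-1.47) and Mpc2 (-1.53), fell on the log2 scale as well. These genes moved in libraries where the share of mitochondrial reads and the parietal markers were lower. The summed chief, surface pit and endothelial markers were lower there too, and a link to any of these was not tested.

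Of 14 tested genes of glycogen metabolism 8 (57.1%) were lower and 1 (7.14%) was higher, with a median of -0.79. Ppp1r3c, a subunit that targets phosphatase to glycogen, fell 6.19-fold (log2 difference -2.60 ± 0.25 SE, adjusted p = 2.36e-05), and the phosphorylase kinase subunit Phkb (-1.37) and the branching enzyme gene Gbe1 (-1.31) fell on the log2 scale. In gluconeogenesis, 2 of 6 tested genes were higher, Pck2 (log2 difference 1.15 ± 0.19 SE, adjusted p = 0.000701) and Fbp2 (log2 difference 1.05 ± 0.21 SE, adjusted p = 0.00236), and 1 was lower, Pcx (log2 difference -0.80 ± 0.15 SE, adjusted p = 0.00138).

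Of 13 other genes of the HIF machinery 4 (30.8%) were lower and none was higher by limma, edgeR or DESeq2, nor was any higher by limma at an unadjusted p under 0.05; 9 were not called, Arnt, Vhl and Hif1an included. Hif3a, a HIF alpha subunit with inhibitory isoforms, had 9.44, 19.2 and 3.84 normalized counts in the knockout libraries, against 95.5, 101.3 and 122 in the wild-type libraries (log2 difference -3.41 ± 0.55 SE, adjusted p = 0.00063). Cited2, which competes with HIF1alpha for its coactivators, had 265, 419 and 386 normalized counts in the knockout libraries, against 883, 2019 and 1372 in the wild-type libraries (log2 difference -1.94 ± 0.28 SE, adjusted p = 0.000356). Arnt2 (-1.0) and the elongin gene Tceb1 (-0.42) were called lower as well, but Arnt2 was not called with quantile normalization (adjusted p = 0.180) or in the authors' deposited table (0.0612). Tceb1 was not called without knockout library 2 (0.0820), without knockout library 3 (0.0567), with the replicate block (0.0554) or in the authors' deposited table (0.208), where 2 of the 13 genes were lower in all.

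Of 38 other tested hypoxia response genes 8 (21.1%) were higher, 14 (36.8%) lower and 16 not called, with a median of -0.13. Car9, a carbonic anhydrase that gastric epithelium expresses and a widely used hypoxia marker, had 484, 507 and 474 normalized counts in the knockout libraries, against 6582, 4132 and 4639 in the wild-type libraries, and fell 10.5-fold (log2 difference -3.36 ± 0.18 SE, adjusted p = 4.8e-07). Vldlr, a lipoprotein receptor, fell 4.01-fold (log2 difference -2.02 ± 0.20 SE, adjusted p = 3.21e-05). Hmox1, a heme-degrading enzyme also induced by oxidative stress and abundant in macrophages, had 370.2, 237 and 680.5 normalized counts in the knockout libraries, against 68.5, 69.2 and 86.4 in the wild-type libraries, and rose 5.75-fold (log2 difference 2.38 ± 0.35 SE, adjusted p = 0.000376). Maff, a small Maf transcription factor, rose 2.81-fold (log2 difference 1.74 ± 0.46 SE, adjusted p = 0.00994), and its adjusted p was 0.0714 with a robust prior. Of 11 regulators of glycolytic genes 4 (36.4%) were higher and 3 (27.3%) lower. Ppargc1a, the coactivator of mitochondrial biogenesis, fell 9.47-fold (log2 difference -3.26 ± 0.22 SE, adjusted p = 2.05e-06), and Txnip, an inhibitor of glucose uptake, fell 2.40-fold (log2 difference -1.27 ± 0.14 SE, adjusted p = 5.13e-05). Foxk1 (0.93) and Foxk2 (0.95), transcription factors that promote glycolysis, rose on the log2 scale.

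**Figure D4:**
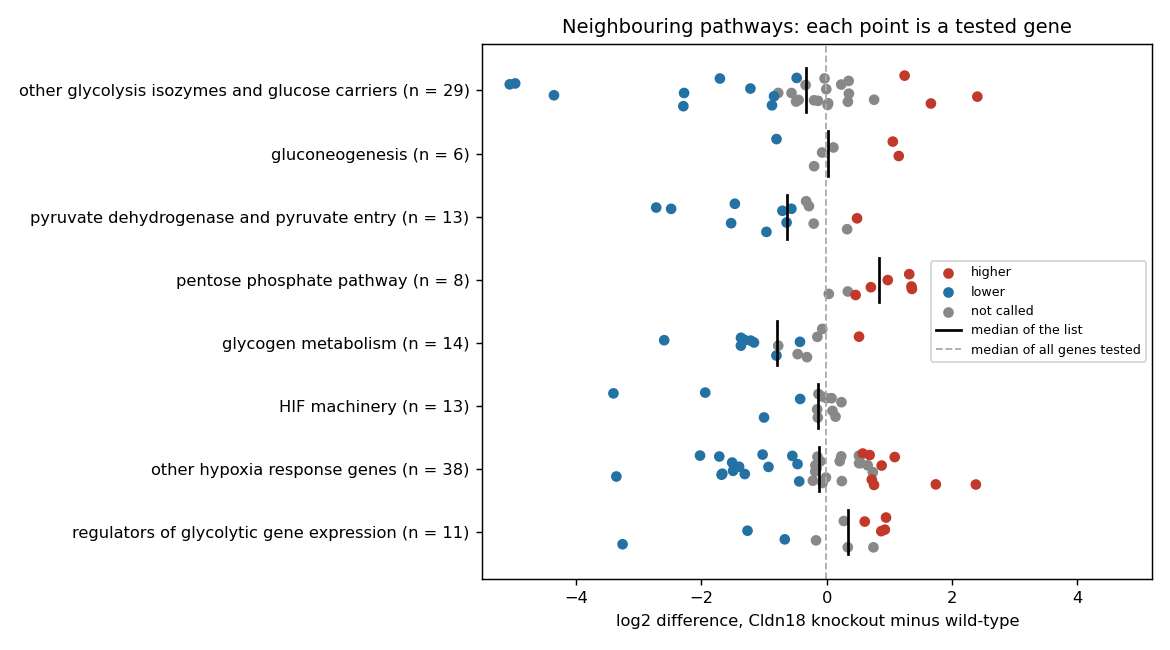
Log2 difference, Cldn18 knockout minus wild-type, of each tested gene of the 8 other pathway lists, coloured by call, with the list median as a black line and the median of all genes tested dashed. The pentose phosphate median is 0.84, and the glycogen and pyruvate medians are -0.79 and -0.64.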

How the data were processed

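RNA of laser-captured stomach corpus neck tissue was compared between 3 Cldn18 knockout and 3 wild-type libraries, grouped by the sample labels. STAR, featureCounts, DESeq and the mm10 build are named in the submitters' processing notes; no source used here gives versions, roles or strand setting. The authors deposited normalized counts, a signal of 0 or more per gene and library. All values (100%) were whole reads, within 0.05 reads, times 1 factor per library, giving totals of 37673283 to 52842813 reads. The deposited table of the authors' comparison holds p-values and a fold change, which is a ratio, for 23086 genes, and was an alternative only.

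A gene was tested if 3 or more of the 6 libraries held 10 or more normalized counts, which 17432 genes did. The test was made with limma 3.58.1 (trended prior, R 4.3.3, two-sided) on log2(normalized count + 1), which understates the change of low genes, with Benjamini-Hochberg adjustment over all of them. On the recovered reads edgeR 4.0.16 called 4323 genes higher and 3724 lower; DESeq2 1.42.0 was another alternative. The procedure was tested on simulated data. Far fewer genes changed there than were called here, and no library was set apart, so that test does not cover data like these. Isozyme shares used the union exon length of GENCODE vM21, which matched 92.0% of rows, and exact permutation tests. Processed pseudogenes were matched to their parents by blastn 2.17.0 (at least 150 bases and 85% identity).

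The 32 genes and all lists were chosen with earlier results of these data known. Named genes are the 32, Cldn18 and, of each other list, up to 4 called genes with the largest log2 difference, groups apart and the higher group averaging 100 or more; Pgls, Rpe, H6pd, Taldo1, Pdk1, Pdk3, Arnt, Vhl and Hif1an were named after their values were seen, and 1 gene under this rule is not reported here. Adding pseudogene reads and using principal transcript lengths were chosen after seeing the data. Replicate numbers were not stated to pair libraries.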

Additional observations from a re-analysis of the deposited data

How the results depend on the processing

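The numbers of the 32 genes called higher (7) and lower (9) were recomputed under 19 alternatives. The 9 lower genes were called lower in each of them. Of the 7 higher genes, 4 were called higher in each (Slc16a1, Hk2, Pfkp and Ldha), while Slc2a1, Pfkfb4 and P4ha1 lost their call in 3, 11 and 5. Leaving out 1 library gave 4 to 8 genes called higher and 9 to 10 lower, and the authors' deposited table gave 4 higher and 9 lower. Quantile normalization gave 12 lower and upper quartile scaling 11; with them the median log2 difference of all genes was 0.10 and -0.15, in place of -0.02. Of the other pathway lists 48 genes were called lower, 31 in the authors' deposited table and 37 to 45 with 1 library left out. The replicate block gave 7 higher and 9 lower genes of the 32; it lost Pfkfb4 (adjusted p = 0.0723) and gained Hif1a (0.0467). Deviations of libraries with the same number correlated at -0.00366, 0.0214 and -0.173. Deviations from a group mean are bound to each other in groups of 3, so these values cannot tell whether the numbers pair the libraries.

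The sign of 9 uncalled genes turned in places; the cause was not tested. On the log2 scale the turn came for Slc16a3 without knockout library 3, for Aldoc without knockout library 1 or 2 or wild-type library 1 or 3, for Pgk1 without knockout library 2 or wild-type library 2, for Eno1 without wild-type library 1 and for Egln3 without knockout library 2. Without wild-type libraries 2 and 3, Tpi1 was at -0.087, Pgk1 at 0.18, Eno2 at 0.47 and Ankrd37 at -0.43; the remaining wild-type library was assumed to vary like the knockouts. Upper quartile scaling put Aldoc at -0.12, DESeq2 at -0.015 and the authors' deposited table at -0.021, quantile normalization put Tpi1 at -0.0099, and added pseudogene reads put Gapdh at -0.24. With 1 library left out the log2 ranges were -0.24 to 0.53 for Slc16a3, -0.21 to 0.28 for Aldoc, -0.18 to 0.13 for Pgk1, -0.25 to 0.0096 for Eno1 and -0.64 to 0.0029 for Egln3.

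In percentage points, knockout minus wild-type, the Pfkl share was at -1.41 to 0.187 with 1 library left out, in place of -0.53. Without wild-type libraries 2 and 3 the Pfkm share was at -14.3, in place of -16.8, and the Eno2 share at 0.522, in place of -1.28. With no division by length the 9 differences kept their sign, but the Pfkl share was at 49.3% in knockout and 63.8% in wild-type libraries, without overlap, and levels moved for Hk2 (23.4% in knockout and 11.6% in wild-type libraries), Pfkm (7.20% in knockout and 18.5% in wild-type libraries), Pfkp (43.5% in knockout and 17.8% in wild-type libraries) and Ldhb (2.03% in knockout and 45.4% in wild-type libraries). Low counts limit Slc16a3, Pfkfb4, Aldoc, Eno2, Adm, Bnip3 and Ankrd37, whose values were under 100 in some or all libraries.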

Other observations

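Besides Gapdh, 10 of the 32 genes had processed pseudogenes in the table. The single Eno1 copy held 0.364%, 0.784% and 0.355% of the Eno1 value in knockout libraries, against 1.11%, 15.9% and 7.06% in wild-type libraries 1, 2 and 3. The 3 Pgam1 copies together held 2.03%, 2.84% and 0.851% of the Pgam1 value in knockout libraries, against 2.90%, 26.6% and 12% in wild-type libraries. The 13 Ldha copies together held 0.351%, 0.316% and 0.239% of the Ldha value in knockout libraries, against 1.15%, 12.7% and 5.28% in wild-type libraries. Wild-type library 2 was the highest for each of these genes. With pseudogene reads added, the counts of called genes among the 32 were 7 higher and 9 lower, equal to those without.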
